A study of Mus musculus with 10 samples.

Results

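The constitutive proteasome genes were followed in 10 mouse cell lines of esophageal squamous cell carcinoma, a tumor of the epithelium that lines the gullet. Members were every gene of the count table whose name begins with PSMA to PSMG and a digit, apart from the 3 inducible immunoproteasome subunits Psmb8, Psmb9 and Psmb10. The rule took 45 of 12806 genes. They were 7 alpha and 7 beta subunits of the 20S core, 6 ATPases and 11 non-ATPase subunits of the 19S cap, 5 activators, the regulator Psmf1, 3 assembly chaperones of the cap and 4 of the core. The last, Psmc3ip, shares only the name: it is known as a partner of the meiotic recombination machinery and is no part of the proteasome.

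The 26S proteasome is the protease that degrades proteins tagged with ubiquitin. Its 20S core is a barrel of stacked rings, with outer alpha rings that gate the entrance and inner beta rings whose subunits Psmb5, Psmb6 and Psmb7 carry the active sites. The 19S cap binds ubiquitin chains, removes them and unfolds the substrate with a ring of ATPases, while the activators of the PSME family open the core without ubiquitin. Transcription of the subunit genes is known to be raised together by Nfe2l1 (NRF1), which binds antioxidant response elements when proteasome activity falls. Missense mutants of p53 have been reported to raise proteasome gene transcription in other cancer cells together with the related factor Nfe2l2 (NRF2).

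All 10 lines were labelled Trp53R172H/- on a mixed background, so each group, controls included, carried the mutant allele and lacked a wild-type one. The lines bore a control hairpin (shCtrl) or a hairpin against Trp53 (shTrp53), and there was 1 primary line of each. The other 8 were grown from lung metastases taken at week 8, expanded in culture and sorted for the fluorescent protein YFP: shCtrl lines 376, 377, 378, 382 and 383, and shTrp53 lines 384, 386 and 387. The sources used here give neither the age of the animals nor whether each line is a clone. Nor do they say that each metastatic line came from its own mouse, and p-values then reflect only how much these lines vary. In libraries of whole cultures, less RNA per cell and fewer cells with a high level cannot be told apart.

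Total counts were 11057049 to 18431216 per library, and members took 1.23 to 1.58% of them. Trp53, the targeted gene, had 94.5 to 131 CPM (counts scaled to the size of the library) in the shCtrl and 5.16 to 7.36 CPM in the shTrp53 metastatic lines. The shCtrl primary line had 73.7 CPM and the shTrp53 primary line 6.54 CPM. All 7 squamous markers had a row, with a summed level of 9028 to 13582 CPM in shCtrl metastatic, 6611 to 9384 CPM in shTrp53 metastatic and 9650 to 12696 CPM in primary lines. Of the other cell types' markers, 3 of 5 fibroblast genes summed to at most 10.9 CPM in any line, Pecam1 of 4 endothelial genes to at most 0.969 CPM, and no lung epithelial gene of 5 had a row. Of the 6 immune markers only Cd68 had a row; it lay at 96.2 to 133 CPM in shCtrl and 128 to 143 CPM in shTrp53 metastatic lines. The part of these differences in the results below was not tested.

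Every member was tested, and the lowest total of a member over the 10 libraries was 2212 counts. Per kilobase of reference transcript, the mean level over the 10 lines was highest for the core subunits Psmb3 (977 CPM per kilobase), Psmb6 (886) and Psma7 (836). The other catalytic subunits stood far lower on this scale, Psmb7 at 92.6 and Psmb5 at 78.5 CPM per kilobase. On coding length the catalytic subunits kept this order, at 990 for Psmb6, 129 for Psmb7 and 89.1 for Psmb5. The lowest members were the activators Psme1 (32.7), Psme2b (19.1) and Psme4 (3.46 CPM per kilobase of transcript). Levels between genes also carry the effect of near copies: 16 members have an annotated copy at least 90% alike over at least 300 bases, among them Psmb5, whose copy Gm3375 is 98.9% identical and has no row of its own.

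**Figure D1:**
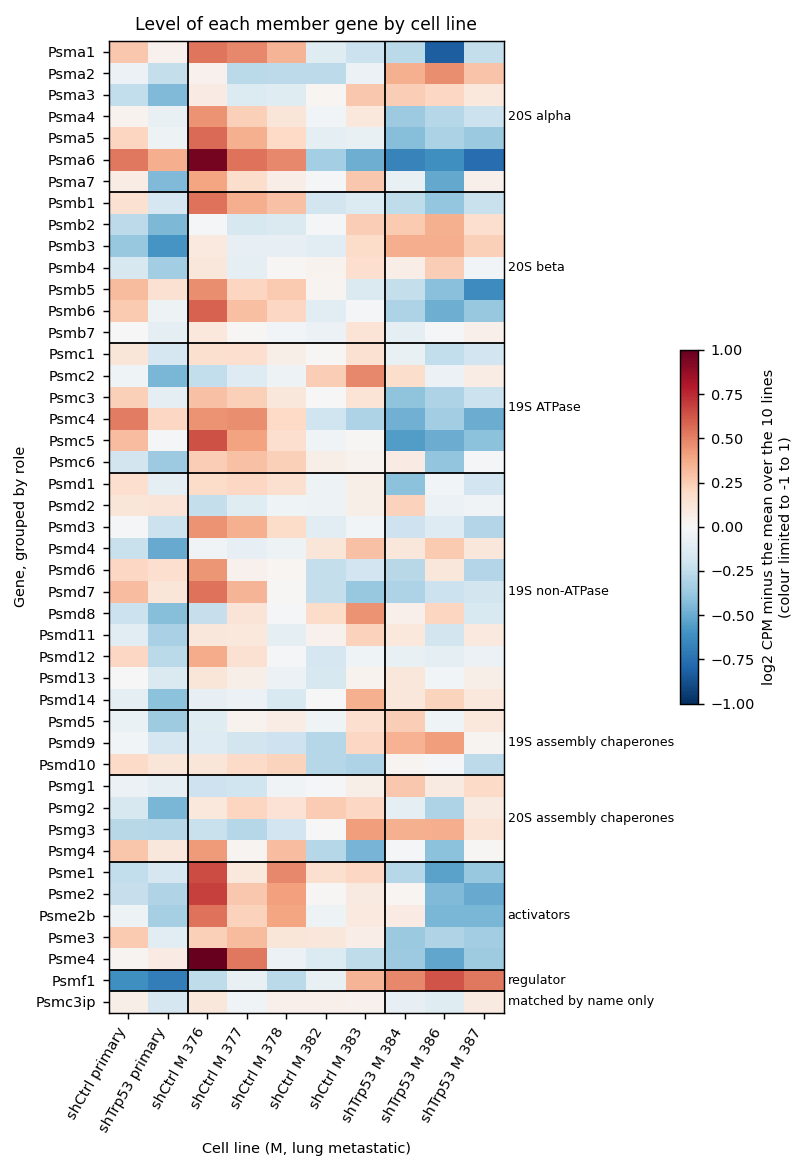
Level of each of the 45 members (rows, grouped by role) in each of the 10 lines (columns), as log2 CPM minus the gene's mean over the lines; red is above and blue below that mean. Psma6 runs from 248 CPM in shCtrl line 376 to 75.4 CPM in shTrp53 line 387, while Psmb7 is nearly flat and Psmf1 runs the other way.

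The question the metastatic lines were made for is what changes when the mutant Trp53 is depleted. In the shTrp53 metastatic lines, 12 members were lower and 2 were higher than in the shCtrl metastatic lines (edgeR quasi-likelihood test, Benjamini-Hochberg adjusted p under 0.05 over 12120 genes). Of all genes tested, 21.7% passed this test, 10.8% lower and 10.9% higher. The lower members were Psma1, Psma4, Psma5, Psma6, Psmb5, Psmb6, Psmc3, Psmc4, Psmc5, Psme1, Psme2 and Psme3, and the higher ones were Psma2 and Psmf1. The median log2 fold change over all members was -0.17, beside -0.01 over all genes. All 3 shTrp53 lines lay below all 5 shCtrl lines for 16 members and above them for 4, beside 14.8 and 14.6% of all genes. Of the 14 members that passed the test, 13 had no overlap between the groups, Psme2 being the exception. They were selected for a difference between these same lines, so this adds no support. The share without overlap among all genes that passed was not counted.

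The roles are given here with the number of their genes that passed, beside 10.8% of all genes lower and 10.9% higher. The 20S core had a median log2 fold change of -0.40, with 6 of 14 members lower and 1 higher. Within it the alpha subunits had a median of -0.47 (4 of 7 lower, 1 higher) and the beta subunits of -0.05 (2 of 7 lower). All 6 ATPases had negative values, with a median of -0.37 and 3 lower. The 11 non-ATPase subunits had a median of -0.07 and none passed. All 5 activators were negative, with a median of -0.60 and 3 lower. None of the 7 assembly chaperones passed, and their median was 0.08. The difference between roles was not tested, nor was any role against all genes. The medians were not taken with a term for lines 376 to 378. With that term, given below, each of the 12 lower members had a log2 fold change of smaller size. Some other members, such as Psmc2 (-0.02 without the term and -0.30 with it), moved the other way.

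The class levels were also read line by line. For the 20S core, the median log2 level relative to the mean of the 10 libraries was 0.42, 0.20, 0.09, -0.08 and 0.05 in shCtrl lines 376, 377, 378, 382 and 383, and -0.17, -0.30 and -0.12 in shTrp53 lines 384, 386 and 387. The ATPases stood at 0.27, 0.26, 0.14, 0.00 and 0.09 in the same shCtrl lines and at -0.24, -0.33 and -0.20 in the shTrp53 lines. The activators spread widest, from 0.02 to 0.65 in shCtrl and from -0.45 to -0.28 in shTrp53 lines. For all 3 classes every shTrp53 line was below every shCtrl line. The non-ATPase subunits overlapped, at -0.06 to 0.12 in shCtrl and -0.06 to 0.05 in shTrp53 lines.

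**Figure D2:**
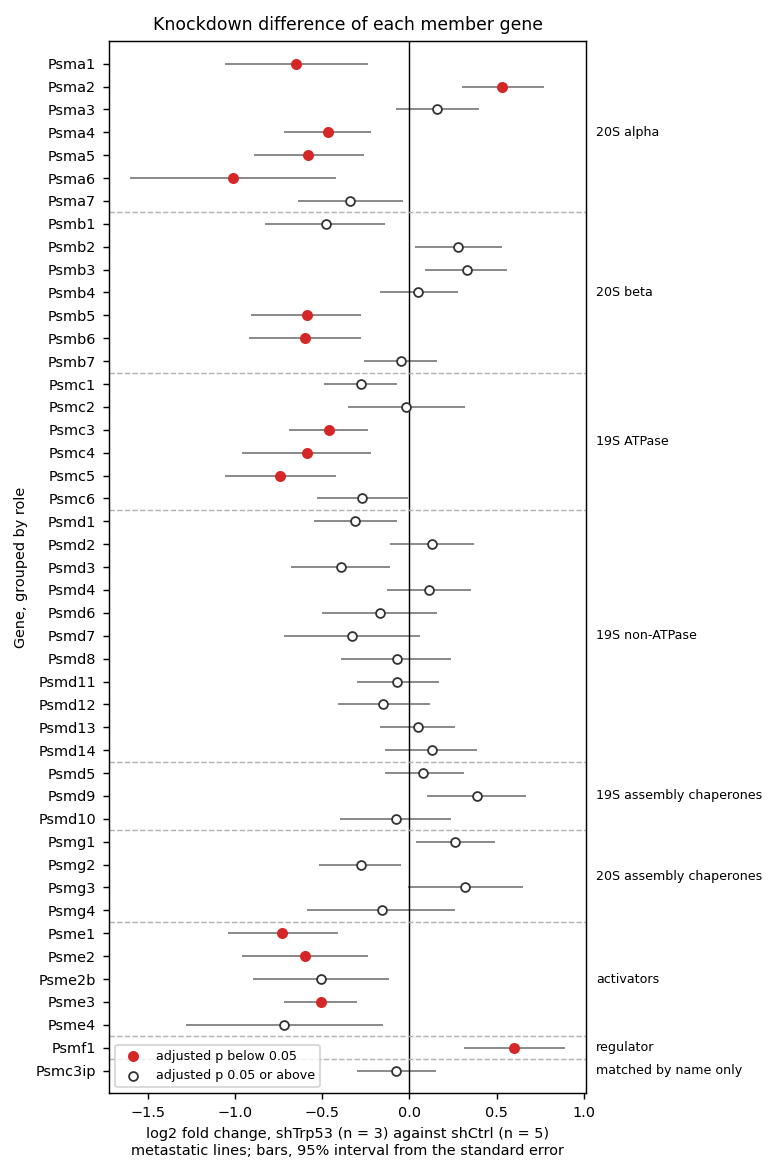
Log2 fold change of each member, shTrp53 (n = 3) against shCtrl (n = 5) metastatic lines. Bars are 95% intervals from the standard error and a normal distribution. With so few lines they are narrower than the F test implies. For Psmc6 the bar (-0.53 to -0.01) leaves out 0 at an unadjusted p of 0.0679 (edgeR). Filled points passed an adjusted p of 0.05, as 21.7% of all genes tested did. Filled points fall in the alpha, beta, ATPase and activator rows and at Psmf1, from -1.01 for Psma6 to 0.60 for Psmf1, and none falls among the non-ATPase subunits or the assembly chaperones.

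The stretch just upstream of the start is shown for the members described next, since it is there that factors of the NRF family are known to act on these genes. The 3 short motifs were searched on both strands of the 250 bases before each RefSeq start (GRCm38.p6, another build than the mm9 of the authors' processing). They were the antioxidant response element core TGACNNNGC, the CCAAT box CCAAT and the GC box GGGCGG. Each stretch below is at most 150 bases, without bases of annotated exons, written 5′ to 3′ on the gene's strand, with matches in capitals. Psma6 has 2 starts in RefSeq.
Psma6 upstream start, chr12:55384072-55384221, plus strand: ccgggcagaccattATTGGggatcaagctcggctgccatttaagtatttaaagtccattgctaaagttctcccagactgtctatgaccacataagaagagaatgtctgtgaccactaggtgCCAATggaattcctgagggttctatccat
Psma6 downstream start, chr12:55398625-55398774, plus strand: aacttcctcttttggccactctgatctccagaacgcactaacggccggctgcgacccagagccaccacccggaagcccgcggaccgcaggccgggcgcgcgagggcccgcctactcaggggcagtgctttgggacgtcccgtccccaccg
Psmb5, chr14:54618023-54618172, minus strand: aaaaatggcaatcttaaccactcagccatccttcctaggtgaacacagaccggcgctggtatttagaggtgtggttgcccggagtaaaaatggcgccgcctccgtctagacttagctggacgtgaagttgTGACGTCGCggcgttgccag
Psmb6, chr11:70525207-70525356, plus strand: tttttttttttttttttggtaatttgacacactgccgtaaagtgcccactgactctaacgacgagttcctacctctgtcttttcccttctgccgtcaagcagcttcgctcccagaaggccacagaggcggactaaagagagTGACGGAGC
Psmc5, chr11:106256080-106256153, plus strand: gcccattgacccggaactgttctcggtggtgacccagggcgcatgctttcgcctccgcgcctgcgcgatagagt
Psme3, chr11:101316063-101316212, plus strand: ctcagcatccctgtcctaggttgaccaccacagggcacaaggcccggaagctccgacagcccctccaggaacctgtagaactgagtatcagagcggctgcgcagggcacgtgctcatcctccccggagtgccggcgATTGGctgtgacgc
Psma2, chr13:14613166-14613239, plus strand: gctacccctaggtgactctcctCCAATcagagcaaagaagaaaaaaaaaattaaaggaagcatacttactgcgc
Psmf1, chr2:151741311-151741460, minus strand: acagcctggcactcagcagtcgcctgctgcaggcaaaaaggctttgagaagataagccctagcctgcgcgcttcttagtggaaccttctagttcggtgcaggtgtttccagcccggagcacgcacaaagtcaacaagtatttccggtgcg
The element core lay in the windows of 5 of the 38 members with an entry (13.2%), beside 10.2% of all 32851 starts. Those 5 were Psmb5, Psmb6, Psmc6, Psmd12 and Psmd9, of which Psmb5 and Psmb6 were lower. The CCAAT box was in 13 of 38 (34.2%, beside 33.8% of all starts) and the GC box in 21 of 38 (55.3%, beside 32.7%). By direction, the GC box was in 7 of 11 lower, 1 of 2 higher and 13 of 25 other members. In Psmd9 the element core overlapped a GC box. The GC boxes of Psma2, Psmb6 and Psmc5 reach outside the stretches printed above. A member was counted if any of its starts had a match, whereas the share of all starts counts each start singly, so these percentages are unlike measures. A match describes these letters only.

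Among the alpha subunits, which form the gate of the core, Psma6 had the largest difference of any member. It lay at 248, 187, 179, 101 and 91.3 CPM in shCtrl lines 376, 377, 378, 382 and 383, and at 80.5, 83.6 and 75.4 CPM in shTrp53 lines 384, 386 and 387. The shTrp53 lines were close together and below all shCtrl lines, but lines 382 and 383 stood nearer to them than to the other shCtrl lines. The mean fell from 161 ± 65.2 (SD, n = 5) to 79.8 ± 4.12 CPM (SD, n = 3), a log2 fold change of -1.01 (SE 0.30, adjusted p = 0.0367, edgeR). Psma6 is on chromosome 12, whose genes had a median log2 fold change of -0.03.

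The alpha subunits Psma1, Psma4 and Psma5 were lower by less. Psma1 had a mean of 463 ± 106 CPM in shCtrl and 295 ± 62.8 CPM in shTrp53 lines (log2 fold change -0.65, SE 0.21, adjusted p = 0.0485, edgeR). For Psma5 the means were 254 ± 50.3 and 170 ± 6.40 CPM (log2 fold change -0.58, SE 0.16, adjusted p = 0.0288, edgeR). Those of Psma4 were 206 ± 26.3 and 149 ± 7.45 CPM (log2 fold change -0.47, SE 0.13, adjusted p = 0.0269, edgeR). In all of these the groups did not overlap. Psma7, the most abundant alpha subunit, overlapped between groups, at 745 to 988 CPM in shCtrl and 528 to 779 CPM in shTrp53 lines (log2 fold change -0.34, SE 0.15, adjusted p = 0.134, edgeR).

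Psma2 was the one core subunit that passed as higher, among 5 of 14 with a positive log2 fold change. It lay at 712, 573, 575, 575 and 662 CPM in shCtrl lines 376, 377, 378, 382 and 383, and at 884, 955 and 843 CPM in the 3 shTrp53 lines. The lowest shTrp53 line was above the highest shCtrl line, and lines 382 and 383 lay within the span of 376 to 378. The mean of 619 ± 64.3 CPM rose to 894 ± 57.0 CPM in shTrp53 lines (log2 fold change 0.53, SE 0.12, adjusted p = 0.0139, edgeR). Psma2 is on chromosome 13, where the median of 451 tested genes was 0.32. The ring places both subunits in equal number, but only RNA was measured here. The ratio of Psma6 to Psma2 CPM, not scaled for length, was 0.311 to 0.349 in shCtrl lines 376 to 378. In shCtrl lines 382 and 383 the ratio was 0.176 and 0.138, and in the shTrp53 metastatic lines it was 0.0875 to 0.0911. It was 0.278 and 0.281 in the primary pair.

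Of the catalytic beta subunits, both Psmb5 and Psmb6 were lower, while no difference was detected for Psmb7. Psmb5, the chymotrypsin-like site, lay at 95, 79.7, 82.3, 70.0 and 62.2 CPM in the shCtrl lines in order of number, and at 58.4, 51.4 and 44.5 CPM in the shTrp53 lines. These groups did not overlap, with line 383 closest to the shTrp53 lines. The log2 fold change was -0.59 (SE 0.16, adjusted p = 0.0260, edgeR; 77.8 ± 12.5 against 51.5 ± 6.97 CPM).

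Psmb6, the caspase-like site and the beta subunit with the highest level after Psmb3 per length, lay at 1037, 849, 795, 636 and 683 CPM in the shCtrl lines and at 555, 491 and 531 CPM in the shTrp53 lines. Again every shTrp53 line was below every shCtrl line. The log2 fold change was -0.60 (SE 0.16, adjusted p = 0.0262, edgeR; 800 ± 157 against 525 ± 32.3 CPM). Psmb7, the trypsin-like site, was the steadiest member of all 45, with a highest line only 1.18 times the lowest. It lay at 115, 108, 105, 103 and 118 CPM in the shCtrl lines and at 100, 106 and 111 CPM in the shTrp53 lines. The groups overlapped, and the log2 fold change was -0.05 (SE 0.11, adjusted p = 0.767, edgeR). Its 95% interval from the SE and a normal distribution, narrower than the F test implies, was -0.26 to 0.16.

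The structural subunit Psmb3 had no overlap, at 680 to 832 CPM in shCtrl and 867 to 945 CPM in shTrp53 lines, but did not pass (log2 fold change 0.33, SE 0.12, adjusted p = 0.0699, edgeR). As for the alpha pair, the ratio of RNA levels differed between lines, also within shCtrl. The ratio of Psmb6 to Psmb3 was 0.822 to 1.32 in shCtrl and 0.519 to 0.612 in shTrp53 metastatic lines, and 1.46 and 1.37 in the primary pair. Both ratios are descriptions, with pairs chosen after the values were seen.

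The ATPases form the ring that unfolds substrates and threads them into the core. Psmc5 had the largest difference of the 6. It lay at 718, 609, 518, 452 and 465 CPM in shCtrl lines 376, 377, 378, 382 and 383 and at 314, 328 and 347 CPM in the shTrp53 lines. All shTrp53 lines were well below the lowest shCtrl line (log2 fold change -0.74, SE 0.16, adjusted p = 0.0126, edgeR; 552 ± 111 against 330 ± 16.8 CPM). The means of Psmc4 were 511 ± 124 and 338 ± 20.3 CPM (log2 fold change -0.59, SE 0.19, adjusted p = 0.0480, edgeR), and shCtrl line 383 at 370 CPM was just above the highest shTrp53 line, at 361 CPM. Psmc3 had means of 298 ± 23.4 and 215 ± 14.0 CPM (log2 fold change -0.46, SE 0.11, adjusted p = 0.0177, edgeR). Psmc2, another ATPase, overlapped widely, at 478 to 791 CPM in shCtrl and 543 to 638 CPM in shTrp53 lines (log2 fold change -0.02, SE 0.17, adjusted p = 0.956, edgeR).

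None of the 11 non-ATPase subunits of the cap passed, beside 21.7% of all genes, and their log2 fold changes ran from -0.39 to 0.13. Psmd14, the deubiquitinase that cuts ubiquitin from substrates, lay at 450, 457, 429, 478 and 612 CPM in the shCtrl lines and at 516, 558 and 512 CPM in the shTrp53 lines. Line 383 was the highest of all, and the groups overlapped (log2 fold change 0.13, SE 0.14, adjusted p = 0.523, edgeR). The ubiquitin receptor Psmd4 lay at 500 to 648 CPM in shCtrl and 572 to 634 CPM in shTrp53 lines (log2 fold change 0.11, SE 0.12, adjusted p = 0.546, edgeR). Psmd2, a scaffold that also binds ubiquitin, lay at 424 to 521 and 479 to 588 CPM in the same groups (log2 fold change 0.13, SE 0.12, adjusted p = 0.459, edgeR). The lid subunit Psmd12 lay at 519 to 754 and 543 to 560 CPM and also overlapped (log2 fold change -0.15, SE 0.14, adjusted p = 0.464, edgeR). Psmd3, another lid subunit, had the largest value of the class, with no overlap between 191 to 281 and 168 to 188 CPM in shCtrl and shTrp53 lines (log2 fold change -0.39, SE 0.15, adjusted p = 0.0748, edgeR). An adjusted p above the threshold does not show that levels were equal.

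The activators all had negative log2 fold changes. Psme3 encodes the nuclear activator PA28 gamma and had the smallest adjusted p of any member. It lay at 288, 304, 266, 264 and 256 CPM in the shCtrl lines and at 189, 198 and 192 CPM in the shTrp53 lines. Both groups were tight and far apart (log2 fold change -0.51, SE 0.11, adjusted p = 0.0103, edgeR; 276 ± 19.6 against 193 ± 4.79 CPM). Psme1 and Psme2 encode the PA28 alpha and beta subunits, known to be induced by interferon gamma along with the immunoproteasome.

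Psme1 lay at 55.2, 37.9, 49.1, 39.3 and 40.6 CPM in the shCtrl lines and at 28.9, 24.3 and 27.1 CPM in the shTrp53 lines, without overlap (log2 fold change -0.73, SE 0.16, adjusted p = 0.0126, edgeR). Psme2 lay at 68.6 to 109 CPM in shCtrl and at 68.8, 49.9 and 47.8 CPM in shTrp53 lines, so line 384 reached the shCtrl span (log2 fold change -0.60, SE 0.19, adjusted p = 0.0411, edgeR). Psme2 and Psme2b are 99.3% identical over 717 coding bases, and the sources used here do not say how their reads were divided. Without Psme2b the activators had a median of -0.66. Psme4, the nuclear activator PA200, had a log2 fold change of -0.72 that did not pass (SE 0.29, adjusted p = 0.0949, edgeR). Its shCtrl lines 376 and 377, at 43.7 and 30.7 CPM, stood apart from the others at 17.9 to 20.5 CPM, and the shTrp53 lines lay at 14.9 to 16.7 CPM.

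Psmf1 encodes PI31, a protein that binds the core and inhibits it in the test tube. It rose, from 89.0, 101, 87.9, 101 and 134 CPM in the shCtrl lines to 148, 164 and 153 CPM in the shTrp53 lines. The groups did not overlap, with line 383 the nearest (log2 fold change 0.60, SE 0.15, adjusted p = 0.0191, edgeR; 103 ± 18.8 against 155 ± 7.99 CPM). Psmf1 is on chromosome 2, where the median over 933 genes was 0.00. Of the assembly chaperones, Psmd9 had the largest value (log2 fold change 0.39, SE 0.15, adjusted p = 0.0791, edgeR), and Psmd5, another chaperone of the cap, had 0.08 (SE 0.12, adjusted p = 0.636, edgeR). Psmg2 (-0.28, SE 0.12, adjusted p = 0.108, edgeR) and Psmg3 (0.32, SE 0.17, adjusted p = 0.186, edgeR), which help to build the alpha ring, had log2 fold changes of opposite sign. Psmc3ip, the name-only match, had a log2 fold change of -0.08 (SE 0.12, adjusted p = 0.660, edgeR).

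**Figure D3:**
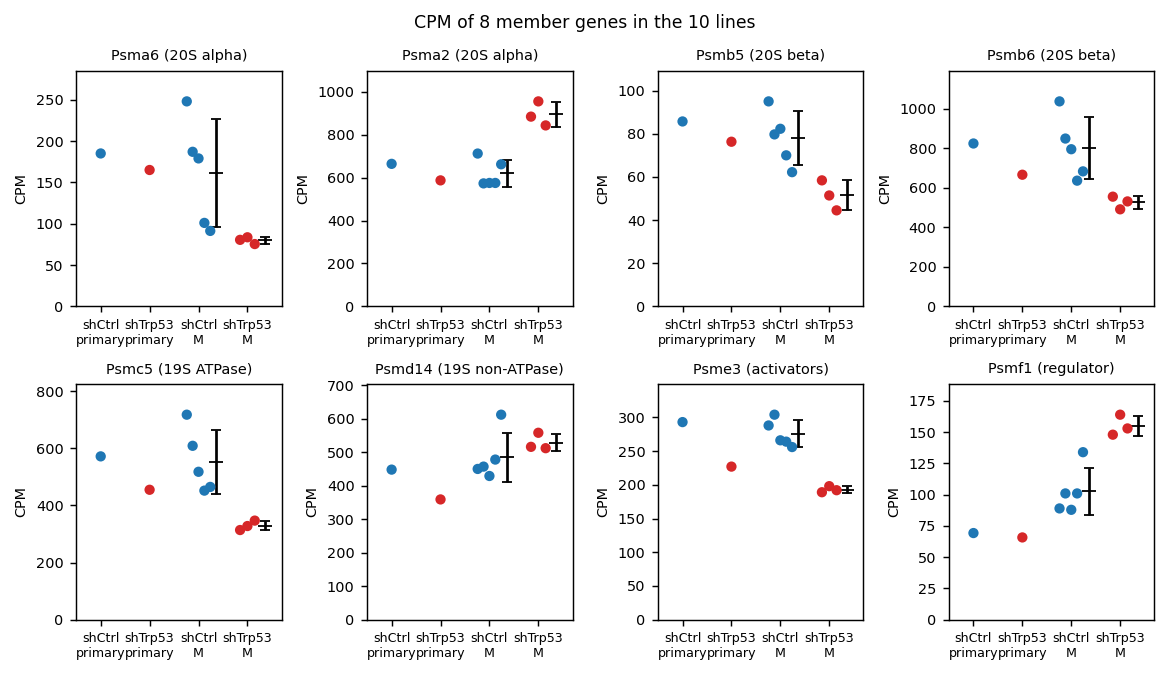
CPM of 8 members in each line (points; blue shCtrl, red shTrp53; M, metastatic), with the mean and SD of the metastatic groups beside them on axes that start at 0. Psma6, Psmb5, Psmb6, Psmc5 and Psme3 are lower and Psma2 and Psmf1 higher in every shTrp53 metastatic line, whereas Psmd14 overlaps.

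These calls depended on which lines were compared. Line numbers run from 376 to 383 in shCtrl and from 384 to 387 in shTrp53 metastatic lines, so line order and the knockdown cannot be told apart. Within the shCtrl lines, 382 and 383 were both below 376, 377 and 378 for 21 members and above them for 6, beside 23.2 and 22% of all tested genes. Of the 12 lower members, 10 were among those 21, the exceptions being Psmc3 and Psme1. For Psma6 the mean was 205 CPM over lines 376 to 378 and 96.4 CPM over 382 and 383, against 79.8 CPM in the shTrp53 lines. With a term for lines 376 to 378, 2 members passed (Psme3 at -0.43, adjusted p = 0.0441, and Psma2 at 0.53, adjusted p = 0.0485, edgeR), beside 8.09% of all genes. The members whose calls were lost with this term kept their direction, but not all of them their size. Psmc3 (-0.46 without the term and -0.38 with it), Psme1 (-0.73 and -0.58) and Psma4 (-0.47 and -0.33) had log2 fold changes that moved by less than 1.5 times. Psmf1 (0.60 and 0.40) and Psmc5 (-0.74 and -0.48) moved by about that much. The values of Psmb5 (-0.59 and -0.36), Psmb6 (-0.60 and -0.33), Psme2 (-0.60 and -0.34) and Psma5 (-0.58 and -0.28) moved by more. Psma6 (-1.01 and -0.27), Psmc4 (-0.59 and -0.19) and Psma1 (-0.65 and -0.25) had the smallest log2 fold changes with the term. Without those 3 lines no member passed in edgeR, beside 5.05% of all genes. At an unadjusted p under 0.05 there were 9 members, and the share of all genes at that cut-off was not counted.

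The number of calls also moved when a line was left out, and so did the share of all genes called. The 14 members called, beside 21.7% of all genes, became 6 without shCtrl line 377 (12.6% of all genes), 6 without 378 (14%), 5 without shTrp53 line 384 (9.35%), 2 without 386 (9.53%) and 6 without 387 (14.6%). They were 10 without line 376 (18.5%), 16 without 382 (20.1%) and 20 without 383 (26.9%). With all lines, DESeq2 called 17 members and 28.1% of all genes, limma voom 19 and 29.6%, and a test against a 1.5-fold change 0 and 2.72%. Psme3 passed in all 8 of these fits. Psmc5 was missed only without line 384 (adjusted p = 0.0562, edgeR), and Psma2 and Psme1 only without line 386 (adjusted p = 0.0530 and 0.0548, edgeR). Psmc3 and Psmf1 were missed without 384 or without 386, at up to 0.0800 and 0.0664. Psmb5 was missed without 377, 378, 386 or 387, at up to 0.0966. Psma4, Psma5 and Psmb6 were missed without 377, 378, 384, 386 or 387, at up to 0.103, 0.101 and 0.0974. Psme2 was missed without 376, 377, 378, 386 or 387, at up to 0.141. Psma1, Psma6 and Psmc4 passed in 2 of the 8 fits, those without 382 or 383, with adjusted p up to 0.184, 0.104 and 0.140.

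The primary lines carry the same hairpins with 1 line each, so their pair was described without a test. Most members were a little lower with shTrp53. The log2 ratio had a 95% counting interval below 0 for 33 of the 45 members, spanning 0 for 12 and above 0 for 0, beside 28.3% of all genes below and 25.3% above. The median ratio of the members was -0.20, beside -0.01 for all genes. Of all genes, 29.3% had a ratio below the median of the members. Counting intervals narrow as the counts of a gene rise, so the shares above also depend on level. The members' median level relative to all 10 libraries was 0.00 in the shCtrl and -0.17 in the shTrp53 primary line with TMM. It was -0.01 and -0.21 with DESeq2 size factors, and -0.01 and -0.12 with upper-quartile scaling. Of the named members Psma7 had the lowest log2 ratio of shTrp53 to shCtrl, -0.51 (counting interval -0.56 to -0.47), at 553 against 790 CPM. Psmd12 (482 against 673 CPM, log2 ratio -0.48) and Psmc2 (413 against 548 CPM, log2 ratio -0.41), neither of which passed in the metastatic lines, followed. Psmc5 was at 455 against 572 CPM, a log2 ratio of -0.33 (-0.38 to -0.28). Psma6 was at 165 against 185 CPM, a log2 ratio of -0.16 (-0.25 to -0.08).

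The direction in the primary pair was not always that in the metastatic lines. Psma2 was at 587 CPM with shTrp53 and 664 CPM with shCtrl, a log2 ratio of -0.18 (-0.22 to -0.13), whereas it was higher in the shTrp53 metastatic lines. Psmf1 was at 65.8 and 69.3 CPM, a log2 ratio of -0.07 (-0.21 to 0.06). Psme1, lower in the metastatic lines, was at 31.3 and 29.7 CPM, a log2 ratio of 0.07 (-0.13 to 0.27). No interaction of site and knockdown passed for any member or gene in edgeR; 2 members, Psma2 and Psme1, and 1168 genes had an unadjusted p under 0.05, and DESeq2 called 0 members and 52 genes. For Psma2, which had the lowest adjusted p of the members, the difference of the differences was 0.71 (SE 0.27, adjusted p = 0.517, edgeR). These intervals cover counting error only, and the interaction assumes that lone primary lines vary like the metastatic ones.

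**Figure D4:**
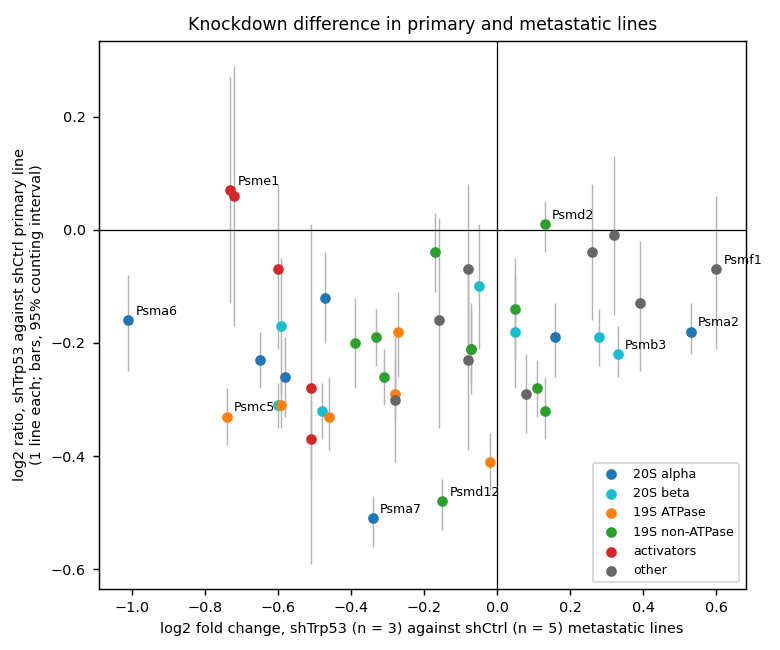
For each member, the log2 ratio of shTrp53 to shCtrl in the primary pair (vertical, 1 line each, bars 95% counting intervals) against the log2 fold change in the metastatic lines (horizontal, n = 3 against 5), coloured by role. Most points lie below 0 on the vertical axis, including Psma2 at -0.18, which stands at 0.53 on the horizontal axis, and Psma7 is lowest at -0.51.

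Between sites, few proteasome genes passed the test. In the 10 lines, with the knockdown as a covariate, 2 members were higher in metastatic than in primary lines and none was lower, beside 14.6% of 12754 genes called, 7.03% higher and 7.57% lower. An unadjusted p under 0.05 was reached by 9 members, of which 1 (Psmc4) was lower. The share of all genes at that cut-off was not counted. DESeq2 called 6 members higher and 0 lower, beside 22.1% of all genes. Limma voom called 1 member and 5.72% of all genes. Against the shCtrl primary line alone, the shCtrl metastatic lines gave 0 members and 0.996% of all genes. The higher members were Psmb3 (log2 fold change 0.62, SE 0.16, adjusted p = 0.0246, edgeR) and Psmf1 (log2 fold change 0.86, SE 0.20, adjusted p = 0.0175, edgeR). Psmb3 lay at 564 and 486 CPM in the shCtrl and shTrp53 primary lines and at 680 to 945 CPM in the 8 metastatic lines. Psmf1 lay at 69.3 and 65.8 CPM in the primary lines and at 87.9 to 164 CPM in the metastatic lines.

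Both members were higher in each metastatic line than in either primary line, as were Psma3, Psmb2, Psmb4 and Psmd4. No member was below both primary lines in all 8. The share of all genes with either pattern was not counted, so neither is a result about the members as a set. Neither call was kept without the shTrp53 primary line, where Psmb3 was at 0.39 (adjusted p = 0.342) and Psmf1 at 0.57 (adjusted p = 0.280, edgeR); in that fit 0.951% of all genes passed. Psmd4 did not pass with all lines (0.46, SE 0.15, adjusted p = 0.0582, edgeR) and passed without shCtrl line 376 (0.47, adjusted p = 0.0448), a fit in which 21% of all genes passed. The catalytic subunits Psmb5 (log2 fold change -0.35, SE 0.17, adjusted p = 0.184), Psmb6 (-0.19, SE 0.18, adjusted p = 0.480) and Psmb7 (0.05, SE 0.12, adjusted p = 0.776, edgeR) did not pass, nor did Psma6 (-0.63, SE 0.32, adjusted p = 0.185). Class medians were 0.01 for the core, -0.07 for the ATPases, 0.09 for the non-ATPase subunits and 0.17 for the activators, beside -0.04 for all genes. The site and knockdown comparisons share the 8 metastatic lines.

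The wider ubiquitin system was read from a list of 31 genes with a row, outside the immunoproteasome. In the shTrp53 metastatic lines 5 of them were higher and 2 lower, with a median of 0.00. Of all genes tested, 10.9% were higher and 10.8% lower, 21.7% in either direction. Ufd1, a cofactor that lets the segregase Vcp extract ubiquitin-tagged proteins, rose from a mean of 133 ± 17.8 CPM to one of 253 ± 34.7 CPM (log2 fold change 0.93, SE 0.14, adjusted p = 0.0028, edgeR) and passed without any 1 line. It also passed with the term for lines 376 to 378 (0.74, adjusted p = 0.0149, edgeR), which Ubqln1 (0.54, adjusted p = 0.0693), Akirin2 (0.45, adjusted p = 0.102), Vcp (-0.35, adjusted p = 0.0963) and Usp14 (-0.44, adjusted p = 0.0516) did not. Ubqln1, a shuttle for tagged proteins, was at 347 ± 89.6 and 634 ± 79.1 CPM (log2 fold change 0.87, SE 0.20, adjusted p = 0.0139, edgeR) and was missed without line 386 (adjusted p = 0.0539). It lies on chromosome 13, like Psma2.

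Akirin2, which carries proteasomes into the nucleus, was at 48.4 ± 10.4 in shCtrl and 80.7 ± 10.3 CPM in shTrp53 lines (log2 fold change 0.74, SE 0.18, adjusted p = 0.0175, edgeR). It was missed without 384 or without 386, at up to 0.0678. The lower genes were Vcp itself (512 ± 33.8 CPM in shCtrl, 391 ± 14.8 in shTrp53 lines; log2 fold change -0.39, SE 0.11, adjusted p = 0.0305, edgeR) and the proteasome-bound deubiquitinase Usp14 (467 ± 29.8 CPM in shCtrl, 349 ± 18.8 in shTrp53 lines; log2 fold change -0.42, SE 0.11, adjusted p = 0.0236, edgeR). Vcp was missed without 377, 384, 386 or 387, at up to 0.109, and Usp14 without 377, 384 or 386, at up to 0.0885.

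Nfe2l1, the factor known to raise proteasome genes, did not pass in the metastatic lines (58.1 ± 16.5 against 44.6 ± 9.06 CPM; log2 fold change -0.38, SE 0.24, adjusted p = 0.267, edgeR). Nor did the related Nfe2l2 (225 ± 22.8 against 247 ± 8.76 CPM, log2 fold change 0.14, SE 0.12, adjusted p = 0.405, edgeR). Between sites Nfe2l2 did not pass (-0.39, SE 0.12, adjusted p = 0.0537, edgeR), at 193 to 254 CPM in metastatic and 286 and 335 CPM in primary lines. Between sites Nfe2l1 was higher in metastatic lines, at 35.1 to 77.9 CPM against 17.2 and 25.2 CPM (log2 fold change 1.28, SE 0.31, adjusted p = 0.0227, edgeR). The autophagy receptor Sqstm1 (log2 fold change 2.41, SE 0.58, adjusted p = 0.0212, edgeR) and the ubiquitin genes Rps27a (0.70, SE 0.16, adjusted p = 0.0177, edgeR) and Ubb (0.63, SE 0.19, adjusted p = 0.0451, edgeR) were also higher there. The list of 31 thus had 4 genes higher and 0 lower, beside 7.03 and 7.57% of all genes. None of these 4 passed without the shTrp53 primary line (adjusted p = 0.0780 for Nfe2l1, 0.238 for Sqstm1, 0.268 for Rps27a and 0.420 for Ubb, edgeR). Without the shCtrl primary line Nfe2l1 (0.174), Sqstm1 (0.0784) and Ubb (0.0672) did not pass either, and Ubb was also missed without 382, 383, 384, 386 or 387 (up to 0.0707).

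The excluded immunoproteasome subunits passed as lower in the shTrp53 metastatic lines when all lines were fitted without a line term. Psmb8 (3.98 ± 1.32 to 0.941 ± 1.17 CPM), Psmb9 (1.60 ± 0.729 to 0.454 ± 0.239 CPM) and Psmb10 (29.0 ± 9.89 to 15.1 ± 3.09 CPM) had log2 fold changes of -2.11, -1.78 and -0.93 with adjusted p of 0.0470, 0.0458 and 0.0325 (edgeR), and passed in 1, 1 and 4 of the 8 fits that leave out a line. With the term for lines 376 to 378 none of the 3 passed, at -2.38, -1.12 and -0.44 (adjusted p = 0.0902, 0.297 and 0.259, edgeR).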

How the data were processed

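Per the labels' protocols, 1 ng of total RNA from each of the 10 lines was copied into cDNA with a SMART-Seq v4 kit, then sheared and built into ThruPLEX libraries. Per the submitters' processing notes the tools were STAR 2.5, Cufflinks 2.2.1 and DESeq2 and the build mm9. The sources used here do not state what each did, which annotation was used or whether strand was counted. The authors deposited whole-number counts per gene, with a different total in each library, taken as counts without normalization. Of 12824 rows, 18 carried no gene name (0.332 to 0.491% of a library's counts) and stayed out of library sizes and tests.

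The members, the role and pathway lists and the tests were chosen with earlier results of these data known. The test was edgeR 4.0.16 under R 4.3.3 (filterByExpr, TMM, robust glmQLFit, glmQLFTest) across all genes, with Benjamini-Hochberg adjusted p under 0.05; each standard error is that fold change on the log2 scale divided by the square root of F. The 95% intervals from a standard error used a normal distribution, so they are narrower than the F test implies. The knockdown comparison used the 8 metastatic lines. The site comparison used all 10, adjusting for the hairpin, and the interaction came from a model with 4 group means. CPM were computed with TMM scaling over all 10 libraries. The primary pair was given as log2 ratios with a prior count of 2 and exact binomial 95% intervals. No molecular identifiers are named, so intervals cover counting error only. No 2 libraries were identical. Values were named for members that passed and for the catalytic, ubiquitin-binding, activator and inhibitor genes. In each role they were also named for the member with the highest mean CPM and the one with the largest fold change. Of the pathway list they were named for up to 4 genes each way per comparison and Nfe2l1, and Nfe2l2 was added later. Some genes this rule took are counted but not named here. Names matched a mouse symbol for 12765 of 12806 genes. Lengths and overlaps came from GENCODE M21 and chromosomes and starts from RefSeq, both of GRCm38. Exons of 12 members overlap another annotated gene, among them Psma4, Psma5, Psmb5, Psmc3 and Psme1, whose reads could not be separated without strand.

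Alternatives were other scalings and low-count filters, DESeq2 1.42.0, limma voom 3.58.1, no robust dispersion, a 1.5-fold threshold, a fit of all 10 lines, a term for lines 376 to 378 and leaving out each line. The fit without lines 376 to 378 was added after the data were seen. Scripts were tested on simulated data: in the knockdown design, with 11974 genes, the share recovered was 58 of 65 at a 4-fold change, 37 of 72 at 2-fold and 10 of 58 at 1.5-fold. Far fewer genes were changed there than the 21.7% called in the data. The adjusted cut-off was therefore stricter, and these shares do not carry over directly to the real comparison.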

Additional observations from a re-analysis of the deposited data

Results flagged for a closer look

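In the 5 shCtrl metastatic lines, line 383 stood far above the others for 3 named members. Psmd14 was at 612 CPM there, with the next line at 478 CPM. Psmd9 was at 111 CPM, with the next at 87.7 CPM, and Psmf1 at 134 CPM, with the next at 101 CPM. The gap to the nearest line took 0.731, 0.719 and 0.723 of the range of the 5 lines, past the 95% critical value of Dixon's test. Chance gives such a gap in about 1 of 20 groups, and 46 genes and classes were checked. For Psmf1 and Psmd9 the value of line 383 was the shCtrl value closest to the mean of the shTrp53 lines. The cause was not tested.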

How the results depend on the processing

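The count of 14 members in the knockdown comparison became 2 with a term for lines 376 to 378, 0 against a 1.5-fold threshold (1 at an unadjusted p under 0.05) and 0 without lines 376 to 378. Leaving out 1 line gave 2 to 20. The share of all genes called moved as well, from 21.7% to 8.09, 2.72 and 5.05% in the first 3 and to 9.35 to 26.9% without 1 line. The 2 members of the site comparison became 6 with DESeq2, 1 with limma voom and 0 for shCtrl metastatic against shCtrl primary, and leaving out 1 line gave 0 to 3. Site medians ran from 0.01 to 0.19 for the non-ATPase subunits and from -0.22 to 0.32 for the activators when 1 line was left out, both moving most without the shCtrl primary line. In the knockdown comparison 8 of the 45 members changed sign with the line term, and the same 8 without lines 376 to 378 (Psmb4, Psmd4, Psmd6, Psmd7, Psmd10, Psmd12, Psmd14 and Psmg4). Of the members given with values, Psmc2 moved to 0.07 with limma voom and to 0.03, 0.11 and 0.05 without 382, 383 and 386 (-0.08 to 0.11 over all such fits), Psmd12 to 0.02, Psmd14 to -0.04 and Psmd4 to -0.05 with the line term, and to 0.03, -0.04 and -0.04 without lines 376 to 378. The cause was not tested. None of the 14 members that passed changed sign in any of the settings run. A site fit without 1 primary line assumes that the lone one varies like the metastatic lines. No paired analysis was possible because the groups share no line number.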
